A study of Rattus norvegicus with 24 samples.

Results

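NF-kB signalling genes and tumour necrosis factor (TNF) receptors were examined in the medial gastrocnemius, a fast calf muscle, of male Wistar rats with and without cardiac cachexia (CC), the muscle wasting that accompanies heart failure. The group comprised 10 genes of the 10851 in the expression table, picked by gene symbol: the receptors Tnfrsf1a, Tnfrsf12a and Tnfrsf21, the adaptor Traf6, the kinase Map3k14, the transcription factor subunits Rela, Relb, Nfkb1 and Nfkb2, and the inhibitor Nfkbia. All 10 were measured in all 24 rats, with at least 91 and at most 14062 estimated counts per gene and rat. Tnfrsf21 and Map3k14 had been singled out by the study from these same samples, so the direction of their values in the sedentary rats is not independent evidence. The study had also singled out Runx1, which serves below as a denervation marker.

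RNA was sequenced from 6 rats in each of 4 groups, 1 library per animal and no pooling. Sed rats received saline and stayed untrained, Ex rats received saline and ran on a treadmill, CC-Sed rats received monocrotaline and stayed untrained, and CC-Ex rats received monocrotaline and ran. Monocrotaline, given as a single intraperitoneal injection, damages the pulmonary vessels and leads to failure of the right side of the heart, so heart failure and other toxic effects of the compound cannot be told apart in these rats. Every rat, untrained ones included, was familiarised with the treadmill and ran to exhaustion in a maximal test before and after the training period. The CC groups hold survivors only, and animals without right ventricular hypertrophy had been removed by the authors. The age of the rats is not given in the sources used here.

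Total estimated counts per library lay between 37816239 and 50350554 and were not detectably different between CC and control rats (two-sided exact permutation p = 0.526 for the untrained and 0.34 for the trained rats, n = 6 per group; the smallest p that 6 against 6 rats allow is 0.00216). Muscle was present in every library, as the summed level of 10 muscle identity genes was between 119648 and 257991 CPM (counts relative to the library size, scaled by the TMM method). The CC-Ex rat replicate 5 stood apart from all others, at 96.5 on a first principal component of all genes that held 39.7% of the variance, where the next rat was at 51.7. Without this rat, 19.3% of all genes passed at an adjusted p under 0.05 between untrained CC and control rats and 0.0461% between trained ones, instead of 6.46% and 0.995%. Several values of single genes are also given without it. None of the 6 T cell markers searched was in the table, and the summed level of 14 macrophage and leukocyte markers did not separate CC from control rats (Sed median 160 CPM, CC-Sed 187 CPM, exact permutation p = 1; Ex 198 CPM, CC-Ex 124 CPM, exact permutation p = 0.494).

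NF-kB is a family of dimeric transcription factors that wait in the cytoplasm. In the canonical branch, TNF binding to its receptor activates the IKK kinase complex through TRAF adaptors, IKK marks the inhibitor IkB alpha (the product of Nfkbia) for destruction, and dimers of Rela and the processed product of Nfkb1 enter the nucleus. In the noncanonical branch, receptors such as the one encoded by Tnfrsf12a stabilise the kinase NIK (the product of Map3k14), which drives the processing of Nfkb2 into a partner for Relb. In skeletal muscle the pathway is known for its part in wasting, in part through the ubiquitin ligase MuRF1, encoded by Trim63, and Nfkbia is itself switched on by NF-kB, which closes a negative feedback loop.

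The promoters of the inhibitor and of both precursor genes are shown because they hold close copies of the sequence that NF-kB binds. Promoters of 300 bases, from 250 before to 50 after the start site, were available for 8 of the 10 genes from RefSeq, on the GRCr8 build (the counts themselves were made on mRatBN7.2). Capitals mark matches, on either strand and merged where they overlap, to the general form of that sequence, which is 3 G, then 5 bases of any kind, then 2 C. The Nfkbia promoter (chr6:78597023-78597322, minus strand) is printed because Nfkbia had the largest increase of the 10 genes, and the Nfkb1 promoter (chr2:226805413-226805712, minus strand) and the Nfkb2 promoter (chr1:255108124-255108423, plus strand) because they share its motif while their levels behaved differently.
Nfkbia: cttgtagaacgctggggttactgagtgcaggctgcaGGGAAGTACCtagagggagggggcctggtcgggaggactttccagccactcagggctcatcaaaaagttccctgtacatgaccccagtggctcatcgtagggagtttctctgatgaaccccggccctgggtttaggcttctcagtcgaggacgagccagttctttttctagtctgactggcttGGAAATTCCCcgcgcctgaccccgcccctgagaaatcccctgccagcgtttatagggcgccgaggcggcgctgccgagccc
Nfkb1: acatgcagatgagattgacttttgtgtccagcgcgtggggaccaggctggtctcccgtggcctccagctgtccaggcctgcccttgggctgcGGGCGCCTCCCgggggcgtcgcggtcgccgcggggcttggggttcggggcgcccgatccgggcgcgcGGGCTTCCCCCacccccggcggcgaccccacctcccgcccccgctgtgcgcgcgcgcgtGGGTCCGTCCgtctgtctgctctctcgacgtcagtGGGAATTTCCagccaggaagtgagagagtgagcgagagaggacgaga
Nfkb2: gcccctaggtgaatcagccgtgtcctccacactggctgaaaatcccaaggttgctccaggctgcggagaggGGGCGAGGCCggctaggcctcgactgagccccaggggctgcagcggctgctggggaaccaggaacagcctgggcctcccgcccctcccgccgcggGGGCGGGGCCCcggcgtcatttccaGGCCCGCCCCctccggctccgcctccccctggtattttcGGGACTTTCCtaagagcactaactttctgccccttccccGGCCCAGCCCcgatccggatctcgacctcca
Nfkbia carries GGGAATTTCC on the opposite strand, from 31 bases before the start site. The same 10 letters lie in the Nfkb1 promoter on the gene's strand, from base 4 after the start site, and Nfkb2 holds GGGACTTTCC from 20 bases before it. The loose motif is common, as 47.3% of 33469 rat promoters of this length hold it and 6 of the 8 genes do, Tnfrsf21 and Tnfrsf1a being those without. The exact letters GGGAATTTCC are in 0.0747% of these promoters and GGGACTTTCC in 0.111%, but each of the 14 different matches in the printed promoters is uncommon letter for letter, from 0.0418% to 4.03%. A match describes the letters and does not show that the site is bound.

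**Figure D1:**
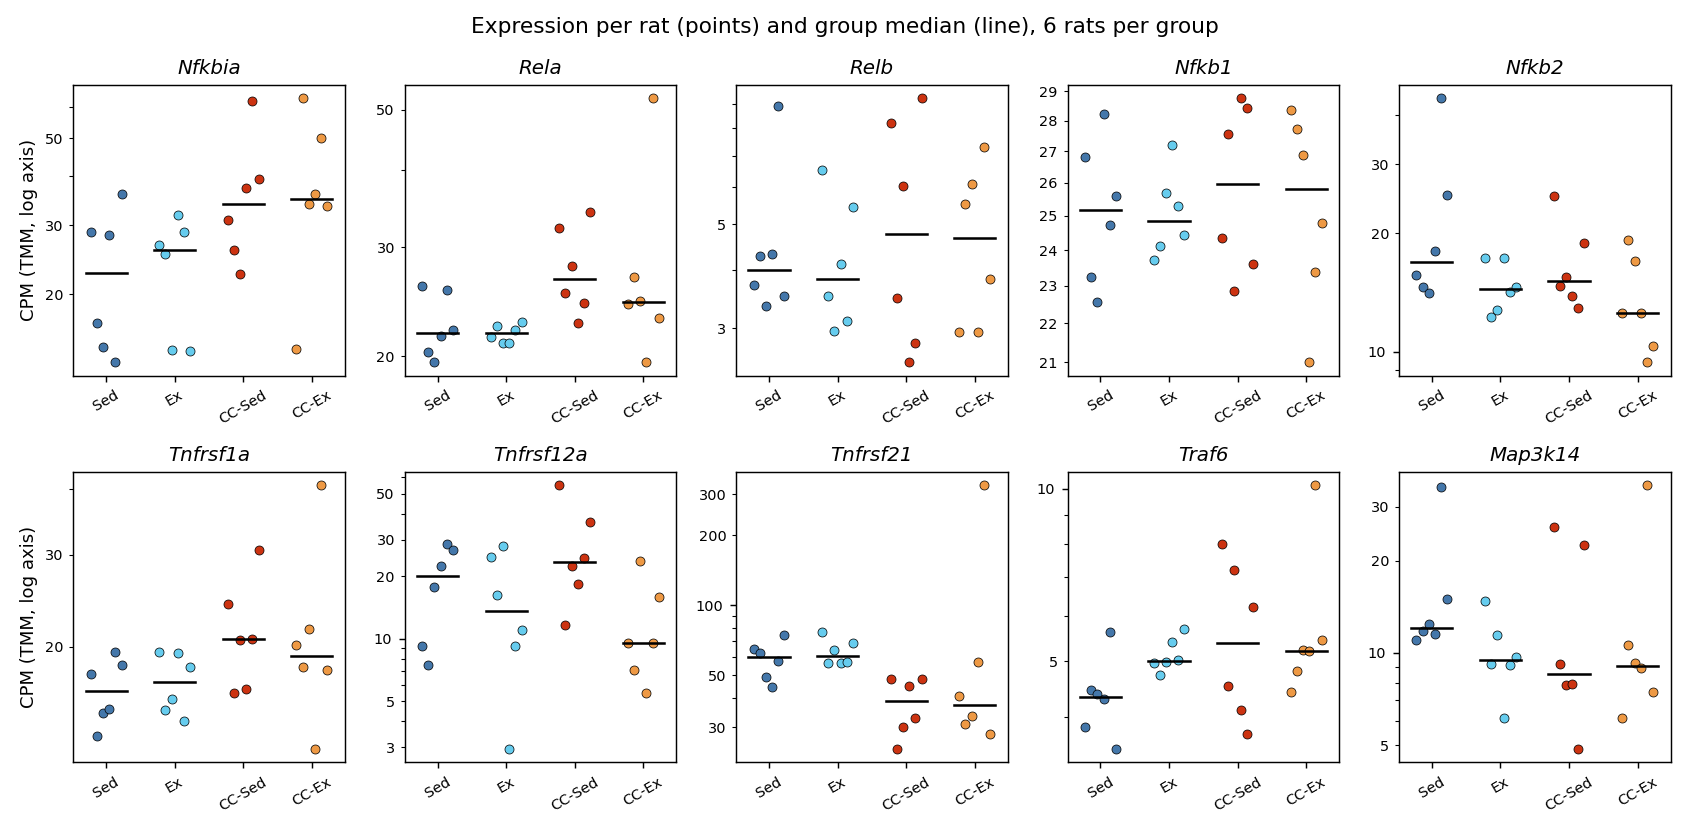
Expression of each of the 10 genes in every rat (points, CPM on a log axis that differs between panels) by group, saline before monocrotaline and untrained before trained, with the group median as a line. Nfkbia and Rela medians are higher in both CC groups than in their controls, as are those of Tnfrsf1a, Relb, Traf6 and, slightly, Nfkb1. Nfkb1 stays between 21.0 and 28.8 CPM in all 24 rats, and the CC-Ex rat replicate 5 is the highest of all for Tnfrsf21 at 330 CPM.

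The comparison of CC with control rats asks how the muscle differs between monocrotaline and saline rats. Over both training states Nfkbia and Rela rose, 2 of the 10 genes at an adjusted p-value under 0.05 where 27.8% of all genes passed (17.2% higher, 10.6% lower), which leaves no excess among these genes. Neither rise reached a Log2FC of 1, the size the study required of a DEG (a differentially expressed gene), which 2.88% of all genes did. Before adjustment 3 of the 10 genes had p under 0.05, beside 42.4% of all genes. The median Log2FC of the 10 genes was 0.15, against 0.01 for all genes. The other 8 genes did not pass, and for several of them the intervals were wide.

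Nfkbia, the inhibitor, had the largest difference. Its lowest, median and highest CPM were 13.4, 22.6 and 36.0 in Sed, 14.3, 26.0 and 31.95 in Ex, 22.6, 34.1 and 62.4 in CC-Sed, and 14.5, 35.02 and 63.3 in CC-Ex. The ranges overlapped in both comparisons, yet 6 of the 12 CC rats lay above the highest of the 12 control rats, and 1 CC-Ex rat (replicate 1) lay near the bottom of the control range. In the mean over both training states Nfkbia rose 1.61-fold (Log2FC 0.69, 95% interval 0.22 to 1.15, adjusted p = 0.0276). The increase was alike in size in untrained (Log2FC 0.66, SE 0.32, adjusted p = 0.173) and trained rats (0.71, SE 0.32, adjusted p = 0.191), where it did not pass on its own, and 5 of 6 CC rats lay above the control median in each. The call was close to the threshold: without CC-Sed replicate 5, CC-Ex replicate 2 or CC-Ex replicate 5 the adjusted p was 0.0518, 0.0517 and 0.0508.

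Rela, the main activating subunit, was among the tightest of the 10 in control muscle. Sed rats had 19.6, 21.8 and 26.0 CPM (lowest, median, highest), Ex rats 21.0, 21.8 and 22.7 CPM, CC-Sed rats 22.6, 26.7 and 34.2 CPM, and CC-Ex rats 19.6, 24.4 and 52.2 CPM. All 6 CC-Sed rats lay above the Sed median and 5 of the 6 trained CC rats lay above their control median, although the ranges overlapped, and only CC-Ex replicate 4 fell below the control rats' median. In the mean over both training states Rela rose 1.27-fold (Log2FC 0.34, 95% interval 0.10 to 0.59, adjusted p = 0.0369). Within the untrained rats the Log2FC was 0.30 (SE 0.17, adjusted p = 0.238) and within the trained rats 0.39 (SE 0.17, adjusted p = 0.187). CC-Ex replicate 5, the highest rat, carried part of the size but not the call, as the Log2FC without it was 0.19 (adjusted p = 0.0419). Leaving out any 1 of 9 other rats (Sed replicates 2, 3, 4 and 6, Ex replicates 3 and 4, CC-Sed replicates 1, 3 and 6) ended the call, with adjusted p up to 0.0802 and Log2FC of at least 0.29.

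Relb, the partner of processed Nfkb2 in the noncanonical branch, ranged widely inside every group. Its CPM were 3.35, 4.00 and 8.94 in Sed, 2.96, 3.82 and 6.51 in Ex, 2.54, 4.75 and 9.28 in CC-Sed, and 2.94, 4.67 and 7.29 in CC-Ex (lowest, median, highest). The CC-Sed rats included both the highest and the lowest of the 24 values, so the groups overlapped completely. The Log2FC of CC against control was 0.18 over both training states (95% interval -0.31 to 0.67, adjusted p = 0.578), and 0.077 without CC-Ex replicate 5 (adjusted p = 0.833).

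Nfkb1, which encodes the canonical partner of Rela, was the steadiest gene of the 10. Its values lay between 22.6 and 28.2 CPM in Sed, 23.7 and 27.2 in Ex, 22.9 and 28.8 in CC-Sed, and 21.0 and 28.4 in CC-Ex. No group stood out. The Log2FC of CC against control was 0.03 with a narrow 95% interval of -0.09 to 0.15 (adjusted p = 0.732). The biological coefficient of variation, the spread between rats of a group left after counting error, was 0.121, which placed Nfkb1 at percentile 4.15 of all genes, where the median gene had 0.213 and the median of the 10 genes was 0.339.

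Nfkb2, the precursor of the noncanonical subunit, had its highest values in 2 saline rats. Sed rats had 14.1, 16.9 and 44.2 CPM, Ex rats 12.2, 14.4 and 17.4 CPM, CC-Sed rats 12.9, 15.1 and 24.9 CPM, and CC-Ex rats 9.41, 12.6 and 19.2 CPM (lowest, median, highest). Sed replicate 5 at 44.2 CPM lay well above Sed replicate 6 at 25.1 CPM, and the remaining rats overlapped. The Log2FC of CC against control was -0.25 (95% interval -0.61 to 0.10, adjusted p = 0.266), and -0.09 without Sed replicate 5.

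Tnfrsf1a is the principal TNF receptor of most tissues and carries a death domain. Its CPM were 13.5, 16.5 and 19.6 in Sed, 14.4, 17.1 and 19.6 in Ex, 16.4, 20.7 and 30.7 in CC-Sed, and 12.8, 19.2 and 40.8 in CC-Ex (lowest, median, highest). Of the 12 CC rats, 7 lay above the highest control rat and 1 below the lowest, so the ranges overlapped at the low end. The Log2FC of CC against control was 0.37 over both training states (SE 0.14, 95% interval 0.07 to 0.66), 0.38 in untrained and 0.36 in trained rats. At an adjusted p of 0.0573 it did not pass in edgeR, while DESeq2 gave 0.0455 and limma-voom 0.0163, and without CC-Ex replicate 5 the Log2FC was 0.21 (adjusted p = 0.125).

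Tnfrsf21, a death receptor best studied in neurons, gave the clearest split between 1 rat and the rest. Its lowest, median and highest CPM were 44.5, 60.04 and 74.4 in Sed, 56.5, 60.8 and 76.9 in Ex, 24.1, 38.9 and 48.4 in CC-Sed, and 27.9, 37.2 and 330 in CC-Ex. All 6 CC-Sed rats and 5 of the 6 CC-Ex rats lay below the median of their controls, 7 of the 12 lay below every control rat, and CC-Ex replicate 5 had 330 CPM where the next CC rat had 57.4 CPM. With all rats the mean Log2FC was -0.09 (95% interval -0.74 to 0.57, adjusted p = 0.848), and Tnfrsf21 did not pass in untrained (-0.63, SE 0.45, adjusted p = 0.363) or trained rats (0.45, SE 0.45, adjusted p = 0.537). Without CC-Ex replicate 5 the mean Log2FC was -0.70 (adjusted p = 0.00138). limma-voom, which gives less weight to libraries that stand apart, gave -0.72 in untrained rats (adjusted p = 0.0204) and -0.77 in trained rats (adjusted p = 0.0172). In the same rat the summed fibroblast markers were the lowest of all 24, at 151 CPM. So were its sums for slow fibres (16.9 CPM), blood (33.8 CPM) and satellite cells (5.23 CPM). The part of such differences in the Tnfrsf21 value was not tested. In bulk muscle, a change in the number of cells of a type and a change in RNA per cell cannot be told apart.

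Tnfrsf12a encodes Fn14, the receptor of the cytokine TWEAK, which is known to be induced in denervated muscle. Sed rats had 7.44, 20.1 and 28.5 CPM, Ex rats 2.93, 13.6 and 27.8 CPM, CC-Sed rats 11.6, 23.5 and 55.1 CPM, and CC-Ex rats 5.47, 9.49 and 23.7 CPM (lowest, median, highest). The groups overlapped, and 4 of 6 CC-Sed rats lay above the Sed median while 4 of 6 CC-Ex rats lay below the Ex median. The Log2FC was 0.59 in untrained rats (SE 0.46, adjusted p = 0.409) and -0.37 in trained rats (SE 0.47, adjusted p = 0.631), and the difference between these effects did not pass (interaction -0.96, 95% interval -2.32 to 0.40, adjusted p = 1).

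Traf6, the ubiquitin ligase that links receptors to the kinases upstream of IKK, was at low levels. Its CPM were 3.51, 4.34 and 5.62 in Sed, 4.73, 5.00 and 5.69 in Ex, 3.72, 5.38 and 8.01 in CC-Sed, and 4.42, 5.21 and 10.2 in CC-Ex (lowest, median, highest). Of the 12 CC rats, 4 exceeded every control rat and the others were spread through the control range. The Log2FC of CC against control was 0.28 (95% interval -0.0032 to 0.57, adjusted p = 0.122), and 0.15 without CC-Ex replicate 5.

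Map3k14, which encodes NIK, was high in 4 rats from 3 groups. Sed rats had 11.0, 12.1 and 34.7 CPM, Ex rats 6.12, 9.46 and 14.8 CPM, CC-Sed rats 4.86, 8.54 and 25.8 CPM, and CC-Ex rats 6.13, 9.09 and 35.4 CPM (lowest, median, highest). The high rats were CC-Ex replicate 5 (35.4 CPM), Sed replicate 5 (34.7 CPM), CC-Sed replicate 1 (25.8 CPM) and CC-Sed replicate 6 (22.5 CPM), and the next was Sed replicate 6 at 15.0 CPM. No difference passed, with a Log2FC of CC against control of 0.03 over both training states (95% interval -0.61 to 0.67, adjusted p = 0.948). The sign turned on single rats: the Log2FC in untrained rats was -0.30 (adjusted p = 0.668) but 0.08 without Sed replicate 5, and in trained rats 0.36 (adjusted p = 0.616) but -0.26 without CC-Ex replicate 5. None of the fits without 1 of the 12 rats compared passed in either comparison, with a smallest adjusted p of 0.4 in untrained and 0.447 in trained rats.

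**Figure D2:**
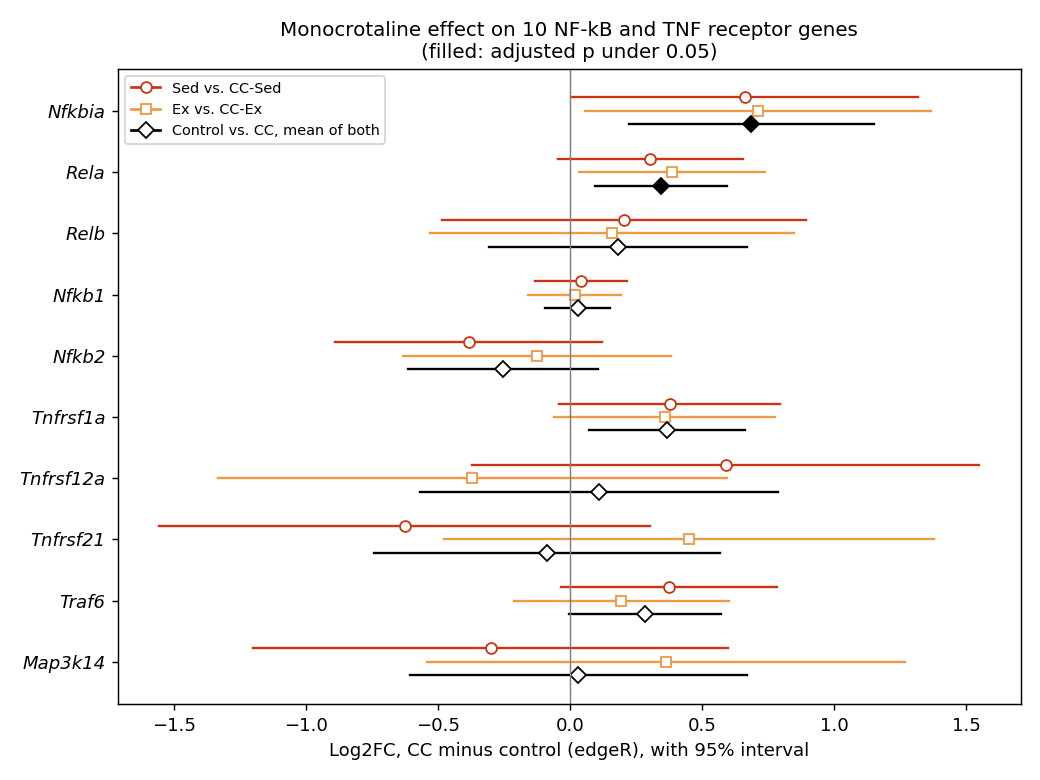
Log2FC of CC minus control with 95% intervals for the 10 genes, in untrained rats, in trained rats and as the mean of both (edgeR, 24 rats); filled symbols have an adjusted p under 0.05. The mean effects of Nfkbia (0.69) and Rela (0.34) are filled, and the intervals of Tnfrsf21, Tnfrsf12a and Map3k14 are the widest.

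Taken within each training state, none of the 10 genes passed. In Sed vs. CC-Sed, 6.46% of all genes passed and 1.87% were DEGs, and 1 of the 10 genes (Nfkbia) had an unadjusted p under 0.05, beside 28.4% of all genes. DESeq2 also called 0, limma-voom called 3 (Rela, Tnfrsf1a and Tnfrsf21), where they called 12.3% and 22.8% of all genes. The study listed Tnfrsf21 and Map3k14 among its downregulated DEGs of this comparison, whereas neither passed here in edgeR or DESeq2. The reason was not tested. The share of all genes depended on single rats, from 1.59% without CC-Sed replicate 6 to 19.3% without CC-Ex replicate 5. In Ex vs. CC-Ex, 0.995% of all genes passed (0.875% higher, 0.12% lower, 0.525% DEGs), and 2 of the 10 genes (Rela and Nfkbia) had an unadjusted p under 0.05, beside 22.6% of all genes. DESeq2 called 0 there and limma-voom called 1, Tnfrsf21, where they called 6.44% and 9.61% of all genes. This share was 0.0184% without any 1 of Ex replicates 2 to 6 or CC-Ex replicate 6, 0.0461% without CC-Ex replicate 5, 7.81% without CC-Ex replicate 4, and 0.00922% with the replicate number as a block. No gene of the 10 had ranges that separated CC from control rats in either comparison, which 3.61% and 1.08% of all genes did. The untrained and trained comparisons use different rats, while the mean over both uses all of them.

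Training was compared in saline and in monocrotaline rats, which asks whether exercise shifts the pathway. None of the 10 genes, and 0% of all genes, passed in edgeR for Sed vs. Ex, for CC-Sed vs. CC-Ex, for the mean of both or for the interaction of CC with training, and DESeq2 and limma-voom called none of the 10 either. Unadjusted p under 0.05 was found for 1, 2, 2 and 0 of the 10 genes, and for 1.09%, 2.16%, 1.75% and 1.42% of all genes. The ranges of the trained and untrained rats overlapped for all 10 genes, while 0.138% of all genes separated Sed from Ex and 0.00922% separated CC-Sed from CC-Ex. Nfkb2 was the gene of the Sed vs. Ex comparison (Log2FC -0.57, 95% interval -1.08 to -0.07, adjusted p = 1), and the value was -0.25 without Sed replicate 5. Between the CC groups the genes were Tnfrsf12a (Log2FC -1.25, 95% interval -2.22 to -0.27, adjusted p = 1) and Tnfrsf21 (1.19, adjusted p = 1), the latter falling to 0.02 without CC-Ex replicate 5. For Tnfrsf12a, 5 of 6 CC-Ex rats lay below the CC-Sed median, and the Log2FC stayed between -1.57 and -0.93 when any 1 rat was left out. Over both states the values of trained against untrained rats were lower for Tnfrsf12a (Log2FC -0.77, adjusted p = 1) and for Nfkb2 (-0.44, adjusted p = 1), neither of which passed.

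The 4 rats with high Map3k14 were also the 4 with the highest Relb and the highest summed level of 7 denervation markers, genes that muscle fibres turn on when they lose their nerve. This sum was 471 CPM in Sed replicate 5, 408 in CC-Sed replicate 6, 321 in CC-Sed replicate 1 and 249 in CC-Ex replicate 5, and the next rat was Sed replicate 6 at 183 CPM. Within the list, the regulator Runx1 and the stress gene Gadd45a were highest in these same 4 rats. The acetylcholine receptor gene Chrnd and the adhesion gene Ncam1 were highest in Sed replicate 5, CC-Sed replicate 1 and CC-Sed replicate 6. In CC-Ex replicate 5 Chrnd was at 1.17 CPM, Ncam1 at 2.60 CPM and the receptor gene Chrna1 at 1.31 CPM. Chrna1 was at 13.5 CPM in CC-Sed replicate 1, below CC-Ex replicate 3 at 24.4 CPM. The receptor gene Chrng was at 34.6 CPM in CC-Sed replicate 1 and 32.6 CPM in CC-Sed replicate 6. Both lay below Ex replicate 3 at 36.8 CPM. Gadd45a supplied 151 of the 249 CPM of the sum in CC-Ex replicate 5. The pattern crosses the groups, with 1 saline rat and 3 monocrotaline rats, and the marker sum did not separate CC from control rats (exact permutation p = 0.712 untrained and 0.323 trained). It was noticed in the values and is given as a description, without a test.

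**Figure D3:**
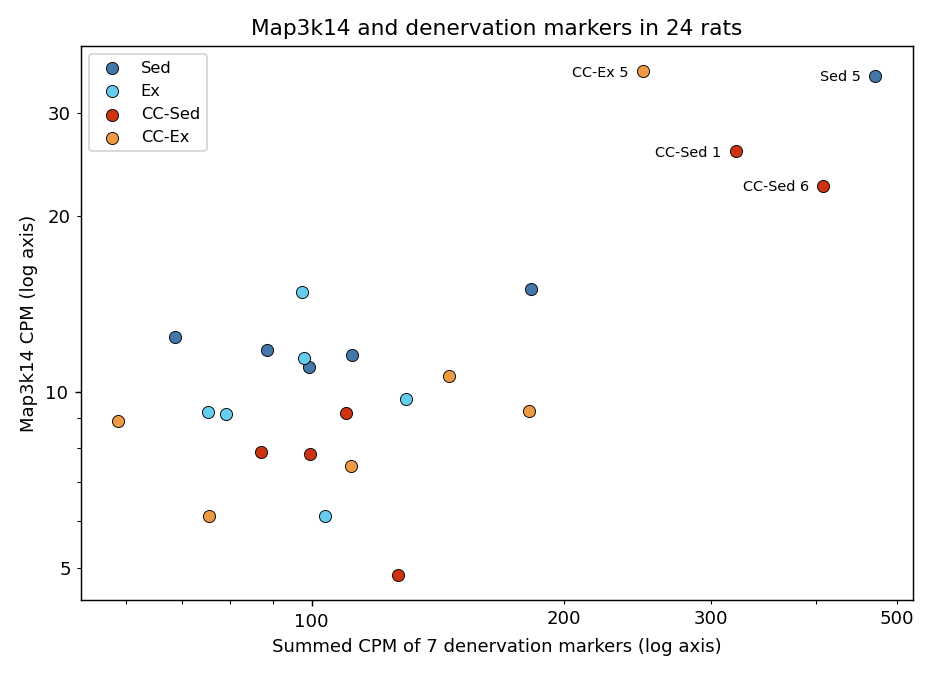
Map3k14 level (CPM, log axis) against the summed level of 7 denervation markers (CPM, log axis), 1 point per rat coloured by group. The 4 labelled rats lie apart, at 22.5 CPM of Map3k14 or more and 249 CPM of the markers or more, and the other rats lie at 15.0 CPM of Map3k14 or less.

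How the 10 genes varied together among rats of the same group was tested with group means subtracted from the log2 CPM, over all 45 pairs and all 24 rats. Pearson's r had an adjusted permutation p under 0.05 for 11 pairs and Spearman's rho for 6, and all 6 of these passed by both measures. The share of such pairs over all genes was not computed. These counts therefore do not show that the 10 genes vary together more than other genes. A first principal component held 39.7% of the variance of all genes, with CC-Ex replicate 5 at its top. Rela and Tnfrsf1a had the highest r (r = 0.879, permutation p = 5e-05, adjusted p = 0.00112; rho = 0.68, permutation p = 0.00117, adjusted p = 0.0132). r was 0.706 without the 2 rats farthest from the median of Rela, CC-Ex replicate 5 and CC-Ex replicate 4. Relb went with Traf6 (r = 0.75, permutation p = 0.00024, adjusted p = 0.00216, and rho = 0.755, permutation p = 0.00043, adjusted p = 0.0099). Without the 2 rats farthest for Relb, Sed replicate 5 and CC-Sed replicate 6, r was 0.741. Relb also went with Rela (r = 0.643, permutation p = 5e-05, adjusted p = 0.00112, and rho = 0.723, permutation p = 0.00044, adjusted p = 0.0099). For this pair r was 0.706 without CC-Ex replicate 5 and CC-Ex replicate 4. The pair of Relb and Tnfrsf1a gave r = 0.683 (permutation p = 0.00014, adjusted p = 0.00157) and rho = 0.69 (permutation p = 0.00102, adjusted p = 0.0132). There r was 0.625 without Sed replicate 5 and CC-Sed replicate 6. CC-Ex replicate 5, the highest rat for Traf6 and for Tnfrsf1a, was kept in the pairs of Relb with Traf6 and with Tnfrsf1a. Their r without it was not computed. The remaining pairs, Map3k14 with Rela and with Relb, are given no pooled coefficient because the Map3k14 values fall into separate clusters. For Nfkbia and Rela, the inhibitor and the subunit it holds back, r was 0.181 (permutation p = 0.464, adjusted p = 0.653) and rho 0.137 (permutation p = 0.539, adjusted p = 0.673). Their r was 0.069 without CC-Ex replicate 5 and CC-Ex replicate 4.

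Over the whole table, the genes whose log2 CPM ran most like each of the 10 across the 24 rats, group differences included, were found by Spearman's rho as a description. Nfkbia ran with Tmem252 (rho 0.81) and with Zfp36 (0.806), which encodes a protein that destabilises inflammatory mRNAs. Map3k14 ran with Npm3, the denervation marker Runx1 and the small heat shock protein gene Hspb8, given without coefficients because its values fall into separate clusters. Rela was closest to Igf2bp2 (0.897) and Otud5 (0.875), Tnfrsf1a to Sbno2 (0.925) and Plbd2 (0.921), and Relb to Spcs3 (0.864) and Shc1 (0.862). Tnfrsf12a was closest to Midn (0.802) and to Styxl2 (0.759) and Xirp1 (0.746), both genes of striated muscle. Traf6 was closest to Lin54 (0.846), Nfkb1 to Osbpl1a (0.823), Nfkb2 to Ltbp1 (0.803) and Tnfrsf21 to Usp28 (0.798). They were picked as the most alike of the whole table, so a high coefficient is built into the choice, and group, depth and the rats that stand apart are shared by all points.

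Around these 10 genes, 109 further genes of the pathway were listed by role, of which 76 were in the table. In Control vs. CC over both training states 13 rose and 9 fell, 22 of 76 where 27.8% of all genes passed, a share close to the share of the table as a whole. Their median Log2FC was -0.08, against 0.01 for all genes. In Sed vs. CC-Sed 4 rose (Gadd45b, Trim63, Irak2 and Cyld) and 3 fell (Ube2n, Tnfsf12 and Fadd), where 4.3% of all genes rose and 2.16% fell. Gadd45b kept its call in all 12 fits without 1 of these rats, Irak2, Ube2n and Tnfsf12 in 3 of them, and Trim63, Cyld and Fadd in 2. In Ex vs. CC-Ex none passed in edgeR, and Ccnd1 came closest with an adjusted p of 0.0525. An unadjusted p under 0.05 was found there for 12 of the 76, beside 22.6% of all genes. DESeq2 called 5 and limma-voom 7, beside 6.44% and 9.61% of all genes.

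Among ligands and receptors 1 gene passed. Of 10 ligands searched only Tnfsf12 and Tnfsf13 were in the table, and Tnfsf12, which encodes TWEAK, the ligand of the Tnfrsf12a product, fell by 0.37 on the log2 scale (adjusted p = 0.00596 over both training states). Tnf, Il1a and Il1b were searched but not in the table, which holds no gene below 10 counts in any rat. Their levels could therefore not be compared. None of 12 receptors passed, with Log2FC from -0.50 to 0.66.

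Adaptors moved in both directions, 5 up and 4 down of 20. Sqstm1, which encodes the autophagy receptor and TRAF6-binding scaffold p62, rose most (Log2FC 1.12, SE 0.25, adjusted p = 0.00407). Tank, a TRAF-binding protein, rose by 0.61 (adjusted p = 0.0332; 0.30 without CC-Ex replicate 5, adjusted p = 0.0438), Irak2, a kinase-like relay of interleukin receptors, by 0.52 (adjusted p = 0.011), and Myd88, the adaptor of Toll-like and interleukin receptors, by 0.51 (adjusted p = 0.024). In the untrained rats Irak2 separated the groups, with 2.28 to 4.47 CPM in Sed and 4.71 to 7.67 CPM in CC-Sed. Of all genes, 3.61% separated these groups. Lower values were found for Traf3, an adaptor that keeps NIK low (-0.56, adjusted p = 0.00985), Fadd, the death-domain adaptor (-0.35, adjusted p = 0.0243), and Ube2n, the ubiquitin-conjugating partner of TRAF6 (-0.31, adjusted p = 0.00303). Traf5 (-0.71, adjusted p = 0.037) and Irak1 (0.40, adjusted p = 0.0462) complete the adaptors that passed and lie past the 20 genes admitted by the naming rule, so they are named after their values were seen.

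Among the 12 kinases only Map3k8, which encodes the kinase Tpl2, passed, with a rise of 0.42 (adjusted p = 0.0224). The genes of the IKK complex, named here for their role and not by the naming rule, did not pass, with Log2FC of 0.15 for Chuk (adjusted p = 0.303), -0.04 for Ikbkb (adjusted p = 0.719) and 0.10 for Ikbkg (adjusted p = 0.542). Rel, the remaining factor gene, fell by 0.33 on the log2 scale (adjusted p = 0.0271), the opposite direction to Rela.

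Of 14 inhibitors 4 rose and 1 fell. Zfp36 rose by 1.01 (SE 0.28, adjusted p = 0.012), Tnip2 by 0.53 (adjusted p = 0.0186), N4bp1 by 0.46 (adjusted p = 0.00977) and Cyld, a deubiquitinase that takes down ubiquitin chains made with TRAF6, by 0.37 (adjusted p = 0.0242; 0.31 and not called without CC-Ex replicate 5, adjusted p = 0.0507). Nkiras1, which slows the loss of IkB proteins, had a Log2FC of -0.73 (adjusted p = 0.0212).

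Targets held the largest values, 3 higher and 2 lower of 15. Trim63, the MuRF1 gene of muscle wasting, rose by 2.40 (SE 0.47, adjusted p = 0.00152), from medians of 239 CPM in Sed and 192 CPM in Ex to 1313 CPM in CC-Sed and 452 CPM in CC-Ex, and CC-Ex replicate 5 was its highest rat at 4846 CPM. Without that rat Trim63 rose by 1.75 (adjusted p = 0.00165). Gadd45b, a stress response gene, rose by 1.66 (SE 0.29, adjusted p = 0.000689). All CC-Sed rats (5.84 to 18.5 CPM) lay above all Sed rats (1.99 to 4.97 CPM). The ranges of these 2 groups separated, in either direction, for 3.61% of all genes. Bcl2l1, which encodes an inhibitor of apoptosis, rose by 1.62 (SE 0.37, adjusted p = 0.00424), and by 0.98 without CC-Ex replicate 5 (adjusted p = 0.00271). Ccnd1, the cyclin D1 gene, had a Log2FC of -1.37 (SE 0.29, adjusted p = 0.00276). All CC-Ex rats (0.281 to 5.93 CPM) lay below all Ex rats (6.87 to 16.4 CPM), and 1.08% of all genes separated these groups. Ier3, an early response gene, had a Log2FC of -0.74 (adjusted p = 0.0302). The other 10 targets in the table did not pass, 9 of them with a negative Log2FC. These genes also answer to other pathways, and no activity of NF-kB was measured.

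**Figure D4:**
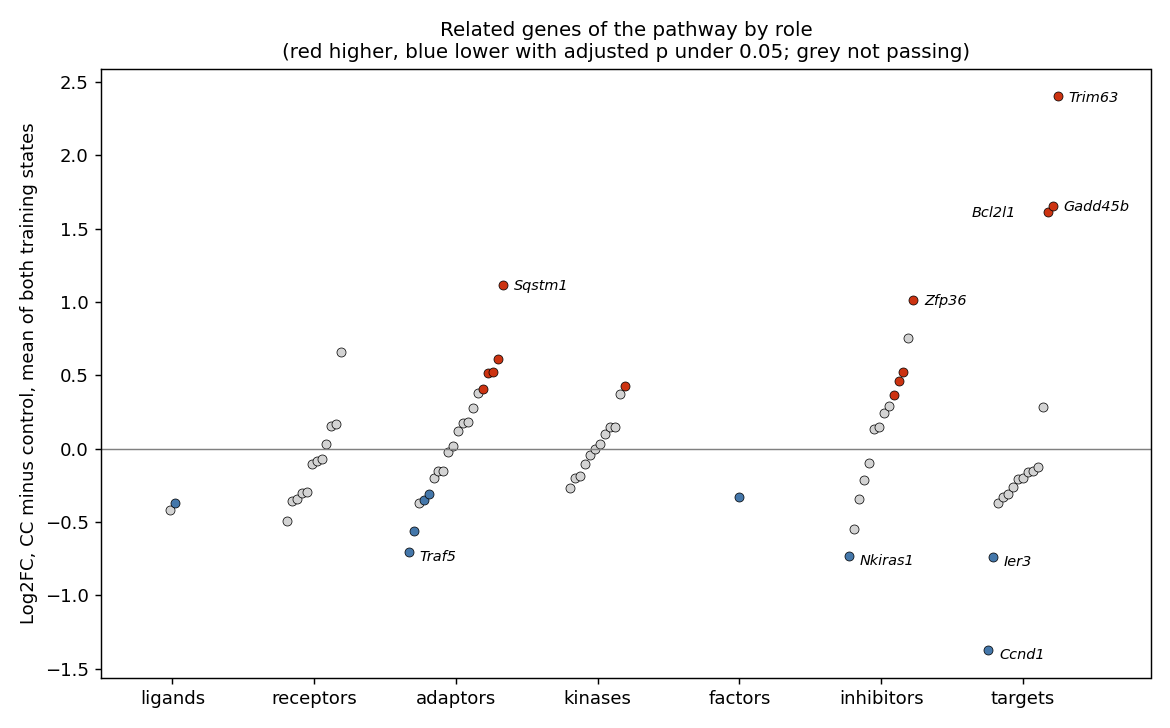
Log2FC of CC minus control (mean of both training states, edgeR) for 76 related genes of the pathway, 1 point per gene by role; red genes rose and blue genes fell at an adjusted p under 0.05, and grey genes did not pass. Trim63, Gadd45b and Bcl2l1 are the highest points and Ccnd1 the lowest, 13 genes being red and 9 blue.

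Other cell types were followed by marker lists beside these values. Fibroblast markers were lower in the trained CC rats (medians 474 CPM in CC-Ex and 2063 CPM in Ex, exact permutation p = 0.0238, adjusted over 16 such tests 0.381). Over both training states 3 of 6 passed as lower, where 10.6% of all genes did. Endothelial sums had medians of 223 and 228 CPM in Sed and Ex and of 279 and 297 CPM in CC-Sed and CC-Ex (exact permutation p = 0.104 and 0.121). Of 6 endothelial markers 2 passed as higher over both training states, where 17.2% of all genes did. In each single comparison 1 passed as higher, beside 4.3% of all genes in untrained and 0.875% in trained rats. Slow-fibre sums had medians of 973 and 1953 CPM in Sed and Ex. In CC-Sed and CC-Ex they were 3605 and 2956 CPM (exact permutation p = 0.188 and 0.675). Of 3 blood markers 2 passed as higher over both training states, where 17.2% of all genes did. The blood sums did not separate CC from control rats (exact permutation p = 0.554 untrained and 0.225 trained). The part of these differences in the values of Nfkbia, Rela and Tnfrsf21 was not tested.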

How the data were processed

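RNA from the medial gastrocnemius of 24 rats, 6 per group, was sequenced from stranded poly-A libraries. The authors trimmed the reads with Trim Galore, quantified them with Salmon on the mRatBN7.2 rat transcriptome and summed transcripts to genes with tximport; they tested with DESeq2 1.44.0. The deposited table holds estimated counts for 10851 genes as whole numbers, none below 10 in any rat, so genes silent in a single rat are absent from it. Groups and replicate numbers came from the labels.

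Analysis used edgeR 4.0.16 under R 4.3.3: TMM scaling, filterByExpr (which removed no gene), a quasi-likelihood model of the 4 group means over all 24 rats, and Benjamini-Hochberg adjustment over all genes. Passing meant an adjusted p under 0.05, and a DEG also had to change by a Log2FC of 1 or more, as in the study's methods. CPM are TMM scaled, and log2 CPM have a prior count of 2. Other cell types and library totals were compared by two-sided exact permutation tests, and pairs of genes by permutation with 1e+05 shuffles within groups. The model was tested on simulated data. The members and the gene lists were chosen with earlier results of these data known.

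All 10 genes are named. Of the related genes, those with an adjusted p under 0.05 in any contrast are named, at most 20 by smallest adjusted p, with the 3 most alike genes per member (of which 1 to 3 are printed).

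Same-numbered rats are different animals and no source says that a number marks a shared litter or day. The mean correlation of their deviations lay between -0.231 and 0.0947 over the 4 pairs of groups, and the model had no block. Correlations of differently numbered rats were not computed, so these values cannot settle whether the numbers pair the rats. Counts of different libraries differed by more than sampling noise in every pair. The precision is limited by the spread between animals, and p-values of group comparisons set a difference against the spread between these rats. Alternatives were DESeq2 1.42.0, upper-quartile scaling, no filter or a mean of at least 5 CPM, a block for the replicate number, a covariate for library number or slow-fibre score, limma-voom with quality weights (limma 3.58.1), only the 12 rats compared, and each rat left out. Library numbers ran from 1 to 21 in CC rats and from 7 to 24 in saline rats. Library number and monocrotaline therefore cannot be fully told apart. Promoter sequences were taken from RefSeq. Fibre size, heart mass and exercise tests were not analysed here.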

Additional observations from a re-analysis of the deposited data

Results flagged for a closer look

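Among the 40 sets of 6 rats given by the 10 genes and 4 groups, 8 had a highest rat that stood apart from the other 5 by Dixon's 95% criterion. Chance exceeds it in about 1 in 20 sets of normally distributed values, a form that was not checked here. The criterion was applied to CPM and not to log2 CPM, on which high values stand out less. All 8 came from the same 2 animals. CC-Ex replicate 5 stood apart for Map3k14 (35.4 CPM, next 10.6), Rela (52.2, next 26.8), Tnfrsf21 (330, next 57.4), Tnfrsf1a (40.8, next 21.6) and Traf6 (10.2, next 5.44). Sed replicate 5 stood apart for Map3k14 (34.7 CPM, next 15.0), Nfkb2 (44.2, next 25.1) and Relb (8.94, next 4.32). Both animals were kept in the values of the report, and the 10 genes are not independent readouts of an animal. What sets these animals apart was not tested.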

How the results depend on the processing

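The rises of Nfkbia and Rela over both training states kept their direction in every alternative and every fit without 1 rat, while their calls lay near the threshold. Rela was no longer called with upper-quartile scaling (Log2FC 0.25, adjusted p = 0.0585), and Nfkbia no longer without both replicates 5 of Sed and CC-Ex (0.56, adjusted p = 0.0768), an alternative chosen after seeing the data. The replicate number as a block left 0 of the 10 genes in either single comparison and 2 over both training states, and 5, 0 and 25 related genes, and it changed no call of the 10 genes.

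Among the 10 genes, Sed vs. CC-Sed calls went from 0 to 3 with limma-voom (22.8% of all genes), 1 with only the 12 rats (9%) and 2 without both replicates 5 (16.7%). Ex vs. CC-Ex went from 0 to 1 with limma-voom (9.61%), and Control vs. CC from 2 to 1 with upper-quartile scaling (27%), 4 with limma-voom (36.4%), 0 at a Log2FC of at least 1, and 1 to 3 without 1 rat. Of the related genes, Sed vs. CC-Sed calls went from 7 to 13 (DESeq2, 12.3% of all genes), 21 (limma-voom), 13 (slow-fibre score, 12.7%), 11 (only 12 rats), 17 (without both replicates 5), 2 (Log2FC of at least 1) and 1 to 16 without 1 rat (1 without Sed replicate 2, 1.88% of all genes; 16 without CC-Sed replicate 4, 15.9%). Their Ex vs. CC-Ex calls went from 0 to 5 (DESeq2), 7 (limma-voom), 1 (library number), 1 (slow-fibre score) and 0 to 7 without 1 rat, and Control vs. CC from 22 to 6 at a Log2FC of at least 1 and 18 to 28 without 1 rat. Of the 20 related genes named for Control vs. CC, Map3k8, Cyld, Rel and Ier3 lost their call under at least 1 alternative, and Map3k8, Cyld, Ier3 and Tank in 1, 2, 4 and 5 of 24 fits without 1 rat.

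Signs turned only for values with no call in edgeR over all rats. The value of Tnfrsf21 in Ex vs. CC-Ex with limma-voom was itself called (adjusted p = 0.0172). For Map3k14 in Sed vs. CC-Sed the Log2FC became 0.087 with the slow-fibre score, 0.041 without both replicates 5, and lay between -0.65 and 0.080 without 1 rat; in Ex vs. CC-Ex it became -0.15 with limma-voom, -0.26 without both, and lay between -0.26 and 0.51 without 1 rat. For Tnfrsf21 in Ex vs. CC-Ex it became -0.037 with the block, -0.77 with limma-voom, -0.18 with the slow-fibre score, -0.74 without both, and between -0.74 and 0.63 without 1 rat; over both training states it became 0.11 with the library number and lay between -0.70 and 0.00379 without 1 rat; its interaction became -0.058 with limma-voom, -0.085 without both, and between -0.092 and 1.26 without 1 rat. Nfkb2 in Ex vs. CC-Ex became 0.080 with limma-voom. Traf6 in Ex vs. CC-Ex became -0.043 without both and lay between -0.043 and 0.26 without 1 rat. Nfkb1 over both training states became -0.044 with upper-quartile scaling and -0.0039 at a mean of at least 5 CPM, and Tnfrsf12a lay between -0.069 and 0.24 without 1 rat. The cause of these changes was not tested.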

Other observations

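Outside the CC comparison, some receptors of the wider list had unadjusted p under 0.05 for training over saline and CC rats together, none of which passed adjustment (edgeR, adjusted p = 1 for each). They were chosen after their values were seen. Eda2r, a receptor known to be raised in wasting muscle, had a Log2FC of -1.42 in trained rats (95% interval -2.54 to -0.30), Relt had -0.63 and the death receptor gene Fas had 0.33.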
